A study of Homo sapiens with 9 samples.

Results

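The 46 genes described here encode the machinery that copies DNA in S phase, the step of the cell cycle in which the genome is duplicated. They were taken by gene symbol from the gene tables, and all 46 were found among the 62666 genes listed, 1 row per symbol. Their RNA was measured in MCF10A, MCF10AT1 and MCF10Ca1a, 3 human mammary epithelial cell lines of 1 lineage, with 3 libraries per line and 9 in all. The study sequenced the lines to follow expression along breast cancer progression. MCF10A is an immortal, non-tumorigenic line, MCF10AT1 descends from MCF10A cells that carry an activated HRAS gene, and MCF10Ca1a, from the same lineage, forms tumours. Each stage is represented by a single line. All 3 lines were kept in DMEM/F12 medium with cholera toxin, hydrocortisone, epidermal growth factor, insulin, glutamine and bicarbonate. Horse serum was at 5% for MCF10A and MCF10Ca1a and at 2.5% for MCF10AT1, so the effects of serum and of line cannot be told apart in a comparison that involves MCF10AT1. The labels number the libraries 1 to 3 within a line and do not say whether these were separate cultures, so p-values measure the spread between libraries, which may be technical.

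Replication begins with licensing in G1, when the origin recognition complex (ORC), CDC6 and CDT1 load the ring-shaped MCM2 to MCM7 helicase onto DNA, and geminin (GMNN) blocks CDT1 so that no origin is licensed again. In S phase MCM10, CDC45 and the GINS complex turn the ring into an active helicase, replication factor C (RFC) loads the sliding clamp PCNA, and polymerases alpha, delta and epsilon extend the new strands. FEN1 and LIG1 join the fragments of the lagging strand, the enzymes of deoxynucleotide synthesis supply the building blocks, and histone chaperones pack the daughter strands. Many of these genes are transcribed at the G1 to S transition by E2F factors, which the retinoblastoma protein holds in check in breast epithelium and other tissues.

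Since E2F factors bind near the start sites of such genes, the 250 bases before each RefSeq start (GRCh38.p14) were read for E2F-type letters, TTTCGCGC, TTTGGCGC, TTTCCCGC or TTTGCCGC, on either strand. RefSeq windows were matched for 41 of the 46 genes, not for E2F8, GINS4, MCM4, MCM5 and POLD3. A match stood in 16 of the 41 genes (39.0%), against 3.40% of the 27305 genes with a window, and in 32% of their 50 windows against 2.79% of all 35116 windows. The stretches of 30 bases below hold the match nearest the start for 12 of the 16 genes, shown as examples of how the letters sit in genes of different roles, each printed 5′ to 3′ on the strand of its gene. Capitals mark the match, which reads as its reverse complement where it lies on the other strand. In MCM6 matches on opposite strands overlap, and in E2F1 the printed bases begin inside a neighbouring match.
GMNN: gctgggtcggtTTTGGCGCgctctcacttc
CDT1: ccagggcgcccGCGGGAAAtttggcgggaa
MCM3: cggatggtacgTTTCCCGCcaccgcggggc
MCM6: ggtcaggTTTGGCGCGAAAtctccagctcc
MCM7: ccggtcacgtggggggcgacgTTTCGCGCc
DTL: caatcagagagcgtgacgtcagTTTGGCGC
PCNA: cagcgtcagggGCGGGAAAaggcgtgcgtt
POLA2: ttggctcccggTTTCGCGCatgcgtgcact
POLE: ctgggtgggagcGCGCCAAAtttctcccct
TYMS: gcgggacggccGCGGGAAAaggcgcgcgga
E2F2: gcggcacgacgTTTGGCGCtaaaaaaaaaa
E2F1: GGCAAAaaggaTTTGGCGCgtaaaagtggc

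These stretches lie, in the same order, at chr6:24775322-24775351 (plus strand), chr16:88803743-88803772 (plus strand), chr6:52284898-52284927 (minus strand), chr2:135876511-135876540 (minus strand), chr7:100101398-100101427 (minus strand), chr1:212035718-212035747 (plus strand), chr20:5126663-5126692 (minus strand), chr11:65261898-65261927 (plus strand), chr12:132687343-132687372 (minus strand), chr18:657603-657632 (plus strand), chr1:23531257-23531286 (minus strand) and chr20:33686387-33686416 (minus strand).

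The median log2 change of MCF10Ca1a against MCF10A was -1.34 for the 16 genes with a match and -1.29 for the 25 without one. In the fit to counts, TYMS had the largest fall and E2F1 the smallest change among genes with a match, and among genes without a match these were POLE2 and RFC1. The place of RFC1 holds on counts only, since in log2 TPM RFC4, also without a match, changed less (0.085 against 0.28). For TYMS, E2F1, POLE2 and RFC1 the longest stretch of the window outside exons of protein-coding genes in GENCODE 29 is printed next. The POLE2 stretch has 42 bases, since the rest of its window lies in annotated exons, and the TYMS stretch ends before the match of TYMS shown above.
TYMS: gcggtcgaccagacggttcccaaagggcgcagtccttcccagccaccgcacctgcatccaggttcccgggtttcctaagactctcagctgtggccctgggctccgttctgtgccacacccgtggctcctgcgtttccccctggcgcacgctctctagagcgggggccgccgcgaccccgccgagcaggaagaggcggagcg
E2F1: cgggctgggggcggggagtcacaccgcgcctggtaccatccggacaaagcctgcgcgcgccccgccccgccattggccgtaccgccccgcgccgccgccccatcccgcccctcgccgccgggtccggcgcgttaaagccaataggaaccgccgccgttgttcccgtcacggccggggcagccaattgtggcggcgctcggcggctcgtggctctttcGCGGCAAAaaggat
POLE2: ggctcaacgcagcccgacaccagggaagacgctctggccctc
RFC1: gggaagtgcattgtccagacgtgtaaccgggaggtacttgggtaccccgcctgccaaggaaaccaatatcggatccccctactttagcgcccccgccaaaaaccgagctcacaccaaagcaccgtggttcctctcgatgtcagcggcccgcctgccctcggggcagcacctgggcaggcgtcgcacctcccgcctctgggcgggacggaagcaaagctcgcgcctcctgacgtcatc

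The 4 stretches lie at chr18:657403-657603 (plus strand), chr20:33686405-33686635 (minus strand), chr14:49688423-49688464 (minus strand) and chr4:39366376-39366612 (minus strand). In the E2F1 stretch the capitals mark a second E2F-type match, upstream of the one printed before. CCAAT, the letters bound by NF-Y, stood on either strand in 26 of the 41 genes (62.0% of their windows, against 32% of all windows), E2F1 and RFC1 among them. TTTGAA, the cell cycle homology region (CHR) of many mitotic genes, stood in 2 of the 41 genes (4.0% of their windows, against 13.3% of all windows). These matches are descriptions of letters in a fixed window, and binding was not measured.

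Library totals were 62898823 to 69508842 estimated counts for MCF10A and MCF10AT1 and 32930503 to 35243012 for MCF10Ca1a, so the tumour-forming line was read less deeply. With all libraries thinned to the smallest total, 33, 45 and 45 of the 46 members were called (MCF10AT1 and MCF10Ca1a against MCF10A, and MCF10Ca1a against MCF10AT1, in turn). With the full counts 61.6%, 80.9% and 78.4% of all genes tested were called in these comparisons. No pair of libraries within a line held identical values, and the chi-square per degree of freedom between them ran from 2.32 to 69.7, highest for MCF10A replicates 1 and 3. Of 8 epithelial markers 7 were at or above 4.70 TPM in every library, and the summed level of the 8 ran from 2368 to 3236 TPM (the deposited level, corrected for transcript length and library total) in MCF10A, 3364 to 3805 in MCF10AT1 and 3964 to 4086 in MCF10Ca1a. The remaining marker, KRT19, was practically absent from MCF10A, at a mean of 0.0566 TPM. The 8 fibroblast markers summed to 1.94 to 31.5 TPM, mostly DCN in MCF10AT1, and the 6 blood and endothelial markers to 4.43 to 21.0 TPM, mostly CD14 in MCF10A and MCF10AT1 and PECAM1 in MCF10Ca1a. PTPRC stayed at or under 0.0377 TPM, THY1 at or under 0.00339 TPM, and 1 blood and endothelial marker, CD3E, was at 0 in every library. The basal keratin KRT14 was at means of 205, 38.8 and 4.78 TPM in MCF10A, MCF10AT1 and MCF10Ca1a. The part of these marker levels in the results was not tested.

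As a whole, replication genes were at their lowest in MCF10Ca1a. The 46 levels summed to 2983, 2766 and 2639 TPM in the MCF10A libraries, 2391, 2373 and 2246 TPM in the MCF10AT1 libraries, and 1220, 1231 and 1197 TPM in the MCF10Ca1a libraries. The lines did not overlap in this sum. Per line it was 2796 ± 174, 2337 ± 79.1 and 1216 ± 16.9 TPM (SD, n = 3), and the 46 genes took 0.425%, 0.360% and 0.175% of all counts. In RNA from whole cultures, fewer cells in S phase and less of these RNAs per cell cannot be told apart. PCNA was the most abundant member in MCF10A and MCF10AT1, at 377 ± 13.4 and 426 ± 8.11 TPM, and RRM2 in MCF10Ca1a, at 167 ± 4.96 TPM (SD, n = 3). E2F2 and E2F8 were the 2 least abundant members in all 3 lines.

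**Figure D1:**
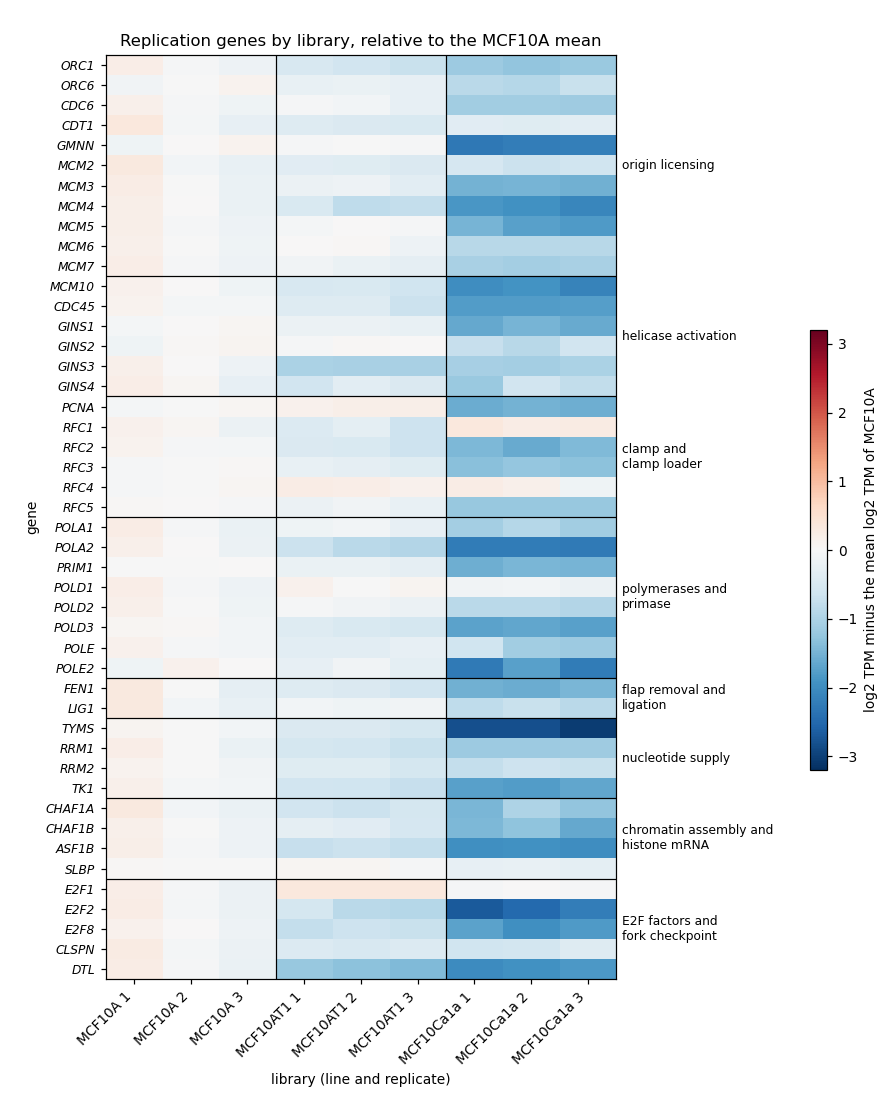
Heat map of the 46 replication genes (rows, grouped by role) in the 9 libraries (columns), as log2 TPM minus the mean log2 TPM of MCF10A, with blue lower and red higher. MCF10Ca1a libraries are blue in nearly every row, with TYMS the darkest, while RFC1, RFC4, POLD1 and E2F1 stay pale or red there.

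Gene by gene, the lines were compared with edgeR's quasi-likelihood test on the counts, with p-values adjusted by Benjamini-Hochberg over the 17910 genes tested and a gene called at an adjusted p under 0.05. All 46 members passed the filter on low counts. The 3 comparisons share libraries, so their values stand side by side and are not independent. In MCF10AT1 against MCF10A 32 of the 46 members were called, where 61.6% of all genes tested were, so the number called was near the background. Of these, 27 were lower (background 31.8%) and 5 higher (29.8%), namely E2F1, PCNA, RFC4, POLD1 and SLBP. With limma on log2(TPM + 1), 29 were called lower (34% of all genes tested) and 2 higher (19.2%), E2F1 and PCNA, while the calls of RFC4, POLD1 and SLBP were lost. The median log2 change was -0.28, against -0.0038 over all genes tested, and 1 member, DTL, was at least 2-fold lower (8.64%), with 0 at least 4-fold lower (3.38%). DTL on log2(TPM + 1) was likewise the 1 called member at least 2-fold lower (4.07%), and 0 were at least 4-fold lower (0.681%). The libraries of the 2 lines did not overlap in normalised counts for 27 members that were lower (34%) and 5 that were higher (31.4%), and in TPM for 30 (39%) and 3 (23.1%).

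In MCF10Ca1a against MCF10A 45 of the 46 members were called, all of them lower, where 80.9% of all genes tested were called and 41.9% were lower. RFC1, the remaining member, had a log2 change of 0.12 (SE 0.0570, adjusted p = 0.063). In this fit 0 members were higher at an unadjusted p under 0.05 either, whereas RFC1 was called higher in 8 of 20 alternative settings, among them DESeq2 (0.16, adjusted p = 0.0123), edgeR with the replicate block (0.12, adjusted p = 0.0447) and edgeR without MCF10A replicate 1 (0.16, adjusted p = 0.0066). Of the 45 calls, those of RFC4, E2F1, POLD1 and CDT1 were lost in some of the alternative settings tried, and were kept in 6 of 20, 10 of 20, 17 of 20 and 19 of 20 of them. The median log2 change was -1.37, a 2.58-fold lower level, against -0.05 over all genes tested. At least 2-fold lower were 36 members (21.7% of all genes tested) and at least 4-fold lower 8 members (10.3%), namely TYMS, E2F2, POLE2, GMNN, POLA2, MCM10, DTL and ASF1B. On log2(TPM + 1), where folds of low genes come out smaller, 42 members were called lower (34.5%) and 1, RFC1, higher (42.2%), and 28 called members were at least 2-fold lower (11%) and 3 at least 4-fold lower (2.72%), TYMS, GMNN and POLA2. The libraries of the 2 lines did not overlap in normalised counts, with MCF10Ca1a lower, for 44 members (42.3%), and in TPM for 42 (35.2%).

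In MCF10Ca1a against MCF10AT1 44 members were lower (background 40.3%) and 1, RFC1, was higher (38%), where 78.4% of all genes tested were called. CDT1 was not called, at -0.12 (SE 0.0767, adjusted p = 0.163). The median log2 change was -1.17, against -0.04 over all genes tested, with 28 members at least 2-fold lower (19.5%) and 4 at least 4-fold lower (7.96%), namely TYMS, GMNN, POLE2 and PCNA. On log2(TPM + 1) 38 members were called lower (28.5%) and 1, RFC1, higher (45.8%), and 16 called members were at least 2-fold lower (7.31%) and 2 at least 4-fold lower (1.45%), TYMS and GMNN. On the deposited TPM values the median of all genes shifted to -0.07, 0.06 and 0.13 in the 3 comparisons in turn, and the members' medians relative to it were -0.31, -1.22 and -0.92.

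**Figure D2:**
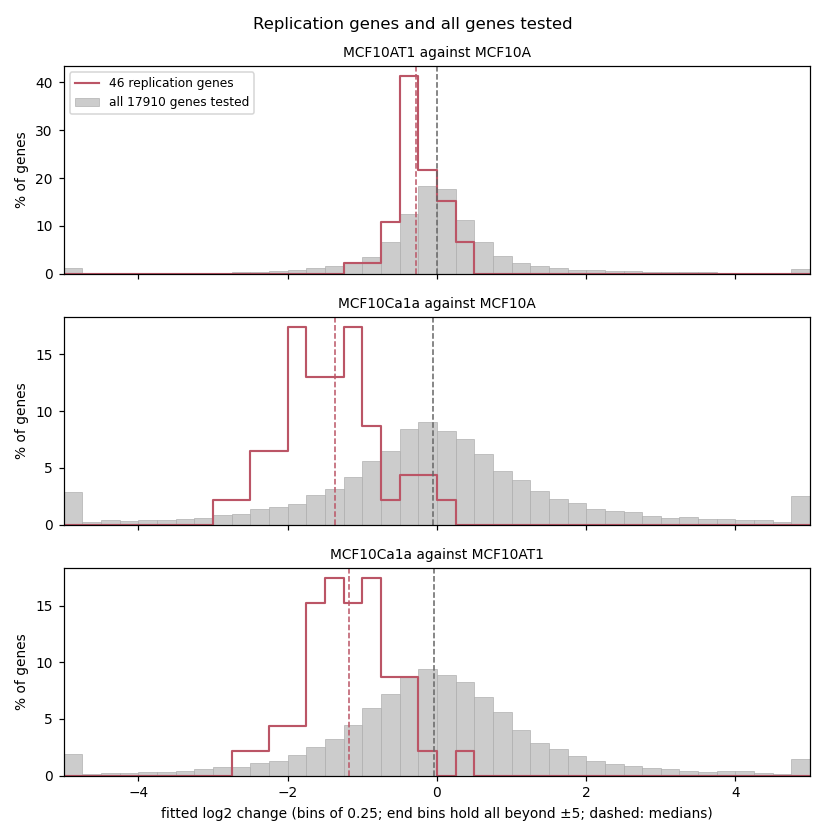
Distribution of the fitted log2 change in 3 comparisons (panels), as the percentage of genes per bin of 0.25, for all 17910 genes tested (grey bars) and the 46 replication genes (red line), with dashed medians. In both MCF10Ca1a panels the red line lies left of 0 apart from RFC1, with medians of -1.37 and -1.17, and in the MCF10AT1 panel it lies close to 0, at -0.28.

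Of the origin licensing genes 11 of 11 fell in MCF10Ca1a against MCF10A, where 41.9% of all genes tested were lower, with a median log2 change of -1.27 and a range of -2.40 to -0.51, and 10 of 11 fell against MCF10AT1 (median -1.18, background 40.3%). In MCF10AT1 against MCF10A 4 fell, namely ORC1, MCM4, CDT1 and MCM2, a share near the background of 31.8%, and 7 were not called. Geminin (GMNN), the licensing inhibitor, was at 142, 158 and 168 TPM in MCF10A, 151, 154 and 153 TPM in MCF10AT1 and 31.9, 33.6 and 34.1 TPM in MCF10Ca1a. The MCF10A and MCF10AT1 libraries overlapped, and every MCF10Ca1a library lay below both. Its log2 change was -2.40 (SE 0.0890, adjusted p = 1.08e-11) against MCF10A and -2.49 (SE 0.0892, adjusted p = 1.14e-11) against MCF10AT1, the largest in the group in each. CDT1, the factor that geminin blocks, was at 28.4, 21.7 and 18.7 TPM in MCF10A, 16.9, 16.4 and 16 TPM in MCF10AT1 and 17.7, 17.3 and 17.7 TPM in MCF10Ca1a. The MCF10Ca1a libraries lay below all MCF10A libraries and just above all MCF10AT1 libraries, and the CDT1 changes were -0.39 (SE 0.0738, adjusted p = 0.000429) in MCF10AT1 and -0.51 (SE 0.0762, adjusted p = 2.76e-05) in MCF10Ca1a, each against MCF10A. The latter call was lost on log2(TPM + 1) with no filter (-0.35, adjusted p = 0.056). Against MCF10AT1 the CDT1 value of -0.12 became 0.09 on log2(TPM + 1), and it was called without MCF10A replicate 1 (-0.13, adjusted p = 0.0278).

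ORC1, the ATPase subunit of the origin recognition complex, was at 18.6, 15.7 and 14.4 TPM in MCF10A, 11.3, 10.6 and 9.86 TPM in MCF10AT1 and 7.15, 6.75 and 7.11 TPM in MCF10Ca1a. The 3 lines did not overlap, in the order MCF10A, MCF10AT1, MCF10Ca1a. In the fit to counts ORC1 had the largest licensing change in MCF10AT1 against MCF10A, at -0.47 (SE 0.0625, adjusted p = 1.78e-05), and -1.33 in MCF10Ca1a against MCF10A. In log2 TPM MCM4 fell further than ORC1 in MCF10AT1 against MCF10A, at -0.68 beside -0.61. CDC6, the loader ATPase that joins ORC, was at 62, 54.4 and 50.7 TPM in MCF10A, 53.9, 51.8 and 46 TPM in MCF10AT1 and 25.5, 25.7 and 25.4 TPM in MCF10Ca1a. Its MCF10A and MCF10AT1 libraries overlapped and MCF10Ca1a lay below them, with -1.27 (SE 0.0611, adjusted p = 1.57e-10) against MCF10A. ORC6, the smallest ORC subunit, ran from 48 to 56 TPM in MCF10A, from 43.4 to 44.4 TPM in MCF10AT1 and from 27.7 to 31.7 TPM in MCF10Ca1a, with a log2 change of -0.98 in MCF10Ca1a against MCF10A. In MCF10AT1 ORC6 was not called in the fit, at -0.13, but was on log2(TPM + 1) (-0.23, adjusted p = 0.0175), and in 4 of 20 alternative settings in all. Between MCF10AT1 and MCF10A, calls absent from the full fit appeared when a single library was left out. Without MCF10A replicate 1 these were ORC6 (-0.22, adjusted p = 0.00312), MCM5 (0.11, adjusted p = 0.0497) and MCM6 (0.14, adjusted p = 0.0266). Without MCF10A replicate 3 they were GMNN (0.18, adjusted p = 0.0254) and MCM3 (-0.19, adjusted p = 0.0114), and without MCF10AT1 replicate 3 MCM6 (0.15, adjusted p = 0.043).

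The MCM2 to MCM7 ring, whose 6 subunits act as 1 helicase, fell in MCF10Ca1a by unequal amounts. MCM4 was at 147, 130.5 and 110.1 TPM in MCF10A, 91.8, 73.5 and 75.8 TPM in MCF10AT1 and 35.5, 33.2 and 30.1 TPM in MCF10Ca1a. MCM5 was at 40.0, 34.2 and 31 TPM in MCF10A, 33.6, 35 and 34.1 TPM in MCF10AT1 and 12.5, 10.5 and 9.89 TPM in MCF10Ca1a. MCM3 was at 78, 65.8 and 57 TPM in MCF10A, 58.7, 59.4 and 52.8 TPM in MCF10AT1 and 23.1, 23.7 and 22.9 TPM in MCF10Ca1a. For MCM3 and MCM5 the MCF10A and MCF10AT1 libraries overlapped and MCF10Ca1a lay well below, whereas for MCM4 no lines overlapped. These 3 subunits had the larger falls against MCF10A, at -1.97 (SE 0.0634, adjusted p = 2.57e-12) for MCM4, -1.94 (SE 0.0652, adjusted p = 4.03e-12) for MCM5 and -1.81 (SE 0.0719, adjusted p = 2.16e-11) for MCM3. MCM7 was at 116, 97.1 and 89 TPM in MCF10A, 91.8, 86.2 and 81.6 TPM in MCF10AT1 and 48.3, 46.7 and 49 TPM in MCF10Ca1a. MCM6 was at 51.1, 44.9 and 41.4 TPM in MCF10A, 45.7, 46.7 and 40.5 TPM in MCF10AT1 and 24.6, 24.7 and 24.5 TPM in MCF10Ca1a. MCM2 was at 46.3, 35.1 and 31.2 TPM in MCF10A, 28.6, 28.1 and 26.8 TPM in MCF10AT1 and 25.6, 23 and 23.8 TPM in MCF10Ca1a. MCF10Ca1a was the lowest line for each of them, by a narrow margin for MCM2, and MCF10A and MCF10AT1 overlapped for MCM6 and MCM7. Their changes against MCF10A were -1.27 for MCM7, -1.01 for MCM6 and -0.76 (SE 0.0841, adjusted p = 1.29e-06) for MCM2. In MCF10AT1 against MCF10A MCM4 fell at -0.43 (SE 0.0601, adjusted p = 2.76e-05) and MCM2 at -0.31 (SE 0.0822, adjusted p = 0.00545), while the values of 0.04 for MCM5 and 0.10 for MCM6 were not called and had the opposite sign on log2(TPM + 1), at -0.03 and -0.04. Without MCF10A replicate 1 the MCM2 change was -0.18, and on log2(TPM + 1) with no filter its call was lost (-0.40, adjusted p = 0.0505), the only one of 20 alternative settings to end it. On log2(TPM + 1) its call against MCF10AT1 in MCF10Ca1a was lost (-0.20, adjusted p = 0.16). The most abundant subunit stood 3.68 ± 0.132 times above the least abundant in MCF10A, 3.11 ± 0.087 times in MCF10AT1 and 4.42 ± 0.547 times in MCF10Ca1a (SD, n = 3, from TPM).

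**Figure D3:**
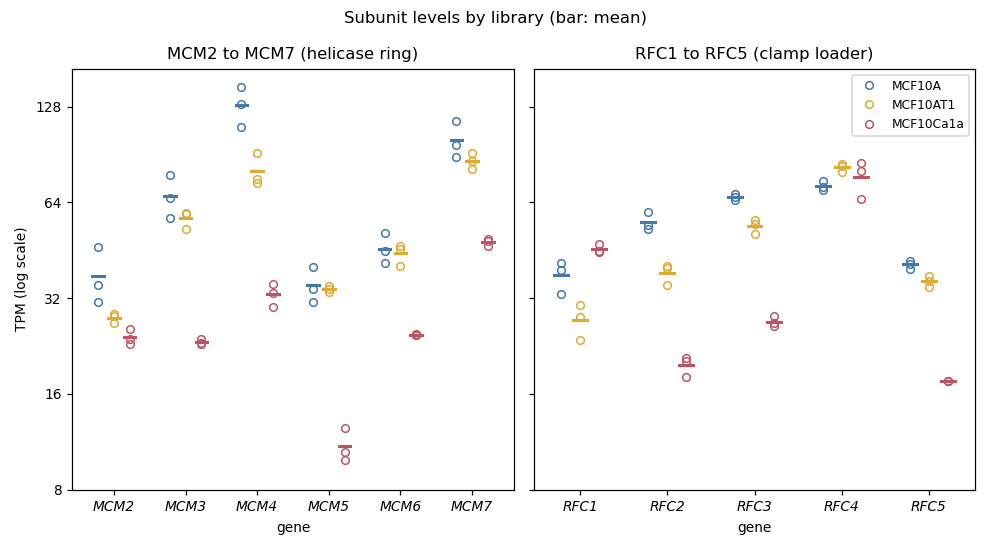
TPM on a log scale of the 6 subunits of the MCM ring (left) and the 5 subunits of the clamp loader (right), 3 libraries per line as circles and their mean as a bar. MCM5 is the lowest MCM subunit in MCF10Ca1a, as it is in MCF10A. In MCF10Ca1a RFC1 and RFC4 stay near or above their MCF10A level while RFC2, RFC3 and RFC5 fall.

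Genes that activate the helicase fell in MCF10Ca1a, 6 of 6 against MCF10A (median -1.47, background 41.9%) and 6 of 6 against MCF10AT1 (median -1.36, background 40.3%), and 4 of 6 fell in MCF10AT1 against MCF10A (background 31.8%). MCM10, which helps to start unwinding, was at 19.7, 18 and 16.5 TPM in MCF10A, 12.7, 12.9 and 11.6 TPM in MCF10AT1 and 4.57, 4.78 and 4.09 TPM in MCF10Ca1a. No lines overlapped, and its change of -2.17 (SE 0.0622, adjusted p = 8.75e-13) against MCF10A was the largest of the group. GINS3, 1 of 4 subunits of GINS, was at 24.1, 21.8 and 19.1 TPM in MCF10A, 10.8, 10.6 and 10.5 TPM in MCF10AT1 and 10.3, 10.2 and 10.6 TPM in MCF10Ca1a. It was already low in MCF10AT1, whose libraries overlapped those of MCF10Ca1a, and between MCF10A and MCF10AT1 its change was -0.89 (SE 0.0534, adjusted p = 6.22e-09). The fitted change in MCF10Ca1a against MCF10AT1, -0.29 (SE 0.0582, adjusted p = 0.000374), was not called on log2(TPM + 1), at -0.03, adjusted p = 0.787. GINS2 was at 24.3, 27.3 and 28.4 TPM in MCF10A, 26.2, 27.3 and 26.8 TPM in MCF10AT1 and 15.9, 14.5 and 17.3 TPM in MCF10Ca1a. MCF10A and MCF10AT1 overlapped for GINS2 and MCF10Ca1a lay below them, at -1.02 (SE 0.0897, adjusted p = 1.15e-07) against MCF10A. Mean levels in MCF10A, MCF10AT1 and MCF10Ca1a were 39.8, 28.1 and 11.5 TPM for CDC45, 38.4, 33.3 and 12.8 TPM for GINS1, and 16.8, 12.1 and 9.32 TPM for GINS4. The GINS4 call against MCF10AT1 was lost on log2(TPM + 1) (-0.35, adjusted p = 0.0556), and its call in MCF10AT1 against MCF10A was kept in 18 of 20 alternative settings, being lost on the scaled counts (-0.35, adjusted p = 0.0618) and on log2(TPM + 1) with no filter (-0.44, adjusted p = 0.0814). Between MCF10AT1 and MCF10A, GINS1 was called in 5 of 20 alternative settings, among them log2(TPM + 1) (-0.20, adjusted p = 0.0153), thinned libraries (-0.17, adjusted p = 0.0272) and the fit without MCF10A replicate 1 (-0.20, adjusted p = 0.00336), and GINS2 without MCF10A replicate 3 (0.21, adjusted p = 0.0255).

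The clamp and its loader held members that rose and members that fell. Of the 6 genes 5 fell in MCF10Ca1a against MCF10A (background 41.9%) and 5 against MCF10AT1 (40.3%), where RFC1 rose (38%), and in MCF10AT1 against MCF10A 3 fell (31.8%) and 2 rose (29.8%). PCNA, the ring that tethers polymerases to DNA, was at 364, 376 and 391 TPM in MCF10A, 416, 429.5 and 431 TPM in MCF10AT1 and 126, 132 and 128 TPM in MCF10Ca1a. MCF10AT1 lay above MCF10A and MCF10Ca1a below both, with no overlap. PCNA rose in MCF10AT1 against MCF10A at 0.31 (SE 0.0650, adjusted p = 0.000948) and fell in MCF10Ca1a at -1.70 (SE 0.0679, adjusted p = 2.28e-11) against MCF10A and -2.01 (SE 0.0684, adjusted p = 7.08e-12) against MCF10AT1. RFC1, the large subunit that opens the clamp, was at 41.2, 39.2 and 33.1 TPM in MCF10A, 27.9, 30.5 and 23.6 TPM in MCF10AT1 and 47.5, 44.7 and 45.1 TPM in MCF10Ca1a. It was lowest in MCF10AT1 and highest in MCF10Ca1a, with no overlap in TPM. RFC1 fell in MCF10AT1 relative to MCF10A, at -0.35 (SE 0.0567, adjusted p = 0.000121), and was higher in MCF10Ca1a than in MCF10AT1, at 0.47 (SE 0.0573, adjusted p = 3.97e-06). RFC1 against MCF10A in MCF10Ca1a was called higher without MCF10A replicate 1 (0.16, adjusted p = 0.0066), on log2(TPM + 1) (0.27, adjusted p = 0.0299) and with DESeq2 (0.16, adjusted p = 0.0123).

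RFC4, a small subunit of the loader, was at 69.98, 71.4 and 74.8 TPM in MCF10A, 84.7, 83.4 and 79.4 TPM in MCF10AT1 and 85, 80.1 and 65.6 TPM in MCF10Ca1a. MCF10AT1 lay above MCF10A, and the MCF10Ca1a libraries overlapped both lines. Relative to MCF10A, RFC4 changed by 0.27 (SE 0.0675, adjusted p = 0.00325) in MCF10AT1 and -0.17 (SE 0.0694, adjusted p = 0.0412) in MCF10Ca1a, and MCF10Ca1a differed from MCF10AT1 by -0.44 (SE 0.0693, adjusted p = 5.24e-05). On log2(TPM + 1) no RFC4 comparison was called, at 0.19, 0.08 and -0.11 in turn, so the sign against MCF10A turned. Its call in MCF10Ca1a against MCF10A was kept in 6 of 20 alternative settings. It was also lost with DESeq2 (-0.13, adjusted p = 0.113), with 2 lines only (-0.14, adjusted p = 0.138), with thinned libraries (-0.14, adjusted p = 0.0651) and on the length-scaled counts (-0.08, adjusted p = 0.451), without MCF10A replicates 2 (-0.16, adjusted p = 0.0829) or 3 (-0.12, adjusted p = 0.116) and without MCF10Ca1a replicates 1 (-0.18, adjusted p = 0.0607) or 3 (-0.13, adjusted p = 0.156), and without MCF10A replicate 1 it was -0.25, adjusted p = 0.000436. RFC2 was at 59.7, 54.2 and 52.8 TPM in MCF10A, 40.4, 39.7 and 35.3 TPM in MCF10AT1 and 20.3, 18.1 and 20.8 TPM in MCF10Ca1a. RFC5 was at 41.9, 41 and 39.6 TPM in MCF10A, 36.1, 37.5 and 34.8 TPM in MCF10AT1 and 17.6, 17.5 and 17.6 TPM in MCF10Ca1a. Both small subunits stepped down from line to line without overlap in TPM, with -1.56 (SE 0.0615, adjusted p = 1.96e-11) for RFC2 and -1.53 (SE 0.0510, adjusted p = 3.73e-12) for RFC5 in MCF10Ca1a against MCF10A. In MCF10AT1 the fitted change of RFC5, -0.04, was not called, whereas on log2(TPM + 1) it was (-0.17, adjusted p = 0.0161), as in 3 of 20 alternative settings, all of them on TPM. RFC3 had -1.41 in MCF10Ca1a against MCF10A, and its change of -0.16 (SE 0.0581, adjusted p = 0.0315) in MCF10AT1 was not called without MCF10A replicate 2 (-0.16, adjusted p = 0.0663) or 3 (-0.10, adjusted p = 0.116), nor without MCF10AT1 replicate 1 (-0.17, adjusted p = 0.0514), 2 (-0.16, adjusted p = 0.065) or 3 (-0.13, adjusted p = 0.117). The spread of the 5 RFC subunits did not overlap between lines, going from 1.93 ± 0.295 times between highest and lowest in MCF10A to 3.05 ± 0.318 times in MCF10AT1 and 4.37 ± 0.573 times in MCF10Ca1a (SD, n = 3, from TPM).

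The polymerases and primase fell 8 of 8 in MCF10Ca1a against MCF10A (median -1.44, background 41.9%) and against MCF10AT1 (median -1.27, background 40.3%), POLD1 among them with calls that were lost on log2(TPM + 1). Of the 8, 4 fell in MCF10AT1 against MCF10A (31.8%) and POLD1 rose (29.8%). POLE2, an accessory subunit of polymerase epsilon, was at 28, 33.5 and 30.7 TPM in MCF10A, 25.6, 28.4 and 24.6 TPM in MCF10AT1 and 6.39, 9.26 and 6.52 TPM in MCF10Ca1a. MCF10A and MCF10AT1 overlapped, and every MCF10Ca1a library was far below. The POLE2 change was -2.42 (SE 0.106, adjusted p = 5.77e-11) against MCF10A. Between MCF10AT1 and MCF10A its -0.29 (SE 0.0850, adjusted p = 0.00963) was not called without MCF10A replicate 2 (-0.25, adjusted p = 0.0511), without MCF10AT1 replicate 3 (-0.24, adjusted p = 0.0548) on the length-scaled counts (-0.11, adjusted p = 0.478) or on log2(TPM + 1) (-0.22, adjusted p = 0.168), and it was kept in 13 of 20 alternative settings. POLE, the catalytic subunit of polymerase epsilon, was at 18.5, 16.6 and 15.8 TPM in MCF10A, 13.4, 13.3 and 14.1 TPM in MCF10AT1 and 11, 7.84 and 7.51 TPM in MCF10Ca1a. The 3 lines did not overlap for POLE, with -1.16 (SE 0.0660, adjusted p = 9.67e-10) in MCF10Ca1a against MCF10A. Its fall in MCF10AT1, -0.26 (SE 0.0628, adjusted p = 0.00274), was not called on the length-scaled counts (-0.18, adjusted p = 0.167) or on log2(TPM + 1) (-0.29, adjusted p = 0.0664), and was kept in 15 of 20 alternative settings.

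POLA2, the accessory subunit of polymerase alpha, was at 29.3, 26.4 and 22.7 TPM in MCF10A, 16.2, 14.4 and 13.5 TPM in MCF10AT1 and 5.50, 5.47 and 5.45 TPM in MCF10Ca1a. POLA1, the catalytic subunit of polymerase alpha, was at 12, 9.92 and 8.75 TPM in MCF10A, 9.21, 9.55 and 8.46 TPM in MCF10AT1 and 4.800, 5.39 and 4.67 TPM in MCF10Ca1a. The lines were separate for POLA2, whereas MCF10A and MCF10AT1 overlapped for POLA1. POLA2 changed by -0.68 (SE 0.0625, adjusted p = 5.44e-07) in MCF10AT1 and -2.37 (SE 0.0722, adjusted p = 1.49e-12) in MCF10Ca1a, and POLA1 by -1.23 (SE 0.0685, adjusted p = 7.57e-10) in MCF10Ca1a, each against MCF10A. PRIM1, the primase that lays down RNA primers, had means of 42.8, 36.3 and 15.1 TPM in MCF10A, MCF10AT1 and MCF10Ca1a and a change of -1.64 against MCF10A in MCF10Ca1a. In MCF10AT1 PRIM1 was not called, at -0.09, but was in 3 of 20 alternative settings, all of them on TPM.

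Within polymerase delta, the catalytic subunit changed least in MCF10Ca1a. POLD1, the catalytic subunit, was at 25.4, 21.5 and 19.7 TPM in MCF10A, 24.5, 21.8 and 23.6 TPM in MCF10AT1 and 20.4, 20.8 and 19.3 TPM in MCF10Ca1a. POLD2 was at 111, 97.7 and 89.3 TPM in MCF10A, 96.5, 91.1 and 87.1 TPM in MCF10AT1 and 54.7, 54.3 and 51.6 TPM in MCF10Ca1a. POLD3 was at 27, 26.5 and 24.5 TPM in MCF10A, 19.5, 18.4 and 17.6 TPM in MCF10AT1 and 7.89, 8.18 and 7.79 TPM in MCF10Ca1a. POLD1 levels of MCF10A overlapped those of both other lines, whereas POLD2 and POLD3 of MCF10Ca1a lay below every other library. In MCF10Ca1a against MCF10A the changes were -0.25 (SE 0.0682, adjusted p = 0.00395) for POLD1, -1.08 (SE 0.0535, adjusted p = 2.07e-10) for POLD2 and -1.78 (SE 0.0548, adjusted p = 1.64e-12) for POLD3. POLD1 was higher in MCF10AT1 than in MCF10A at 0.23 (SE 0.0663, adjusted p = 0.0087). On log2(TPM + 1) none of the POLD1 comparisons was called, at 0.07, adjusted p = 0.533 in MCF10AT1 and -0.13, adjusted p = 0.217 in MCF10Ca1a against MCF10A, and -0.20, adjusted p = 0.066 between the 2.

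Both lagging-strand genes fell in MCF10Ca1a against MCF10A (background 41.9%) and against MCF10AT1 (40.3%). FEN1, the nuclease that trims flaps, was at 86.5, 69.2 and 57 TPM in MCF10A, 52.8, 51 and 45.6 TPM in MCF10AT1 and 24.2, 23.1 and 25.2 TPM in MCF10Ca1a. LIG1, the ligase that seals nicks, was at 24.4, 18.6 and 16.8 TPM in MCF10A, 18.5, 17.7 and 18.3 TPM in MCF10AT1 and 11.3, 11.9 and 10.7 TPM in MCF10Ca1a. Lines were separate for FEN1, with a wide range in MCF10A, while MCF10A and MCF10AT1 overlapped for LIG1. FEN1 changed by -0.36 (SE 0.0846, adjusted p = 0.00208) in MCF10AT1 and -1.69 (SE 0.0900, adjusted p = 4.85e-10) in MCF10Ca1a against MCF10A. LIG1 changed by -0.97 (SE 0.0765, adjusted p = 3.32e-08) in MCF10Ca1a, and its -0.01 in MCF10AT1 was not called and turned sign in other settings.

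All 4 genes of nucleotide supply fell in each comparison, where 31.8%, 41.9% and 40.3% of all genes tested were lower. TYMS, thymidylate synthase, was at 189.6, 178 and 168 TPM in MCF10A, 130.0, 129.9 and 121 TPM in MCF10AT1 and 25.1, 25.5 and 21.9 TPM in MCF10Ca1a. No lines overlapped, and the drop from MCF10AT1 to MCF10Ca1a exceeded the range within any line. At -2.97 (SE 0.0538, adjusted p = 1.23e-14) in MCF10Ca1a against MCF10A, a 7.83-fold lower level, it was the largest change of the 46 members, and against MCF10AT1 it was -2.60 (SE 0.0535, adjusted p = 9.48e-14). TK1, thymidine kinase of the salvage route, was at 78.9, 67.7 and 65.9 TPM in MCF10A, 46.6, 45.8 and 42.2 TPM in MCF10AT1 and 21.2, 20.4 and 22.2 TPM in MCF10Ca1a. TK1 stepped down from line to line, with changes of -0.51 (SE 0.0563, adjusted p = 2.91e-06) and -1.83 (SE 0.0613, adjusted p = 3.9e-12) in MCF10AT1 and MCF10Ca1a against MCF10A. RRM2, the small subunit of ribonucleotide reductase, was at 299, 271 and 255 TPM in MCF10A, 211, 211 and 185 TPM in MCF10AT1 and 162, 172 and 166 TPM in MCF10Ca1a. RRM1, its large subunit, was at 163, 139 and 122 TPM in MCF10A, 95.9, 93.9 and 85.3 TPM in MCF10AT1 and 62.5, 62.6 and 63.9 TPM in MCF10Ca1a. Neither showed overlap between lines, and RRM2 had the smallest change of the group in MCF10Ca1a against MCF10A, -1.001 (SE 0.0518, adjusted p = 3.45e-10), beside -1.29 (SE 0.0710, adjusted p = 7.05e-10) for RRM1.

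The 3 chromatin assembly genes and SLBP fell in MCF10Ca1a against MCF10A (background 41.9%) and MCF10AT1 (40.3%), by unequal amounts. ASF1B, a histone chaperone, was at 46.5, 39.6 and 36.6 TPM in MCF10A, 24.3, 25.5 and 23.8 TPM in MCF10AT1 and 10.5, 10.5 and 10.2 TPM in MCF10Ca1a. SLBP, which binds the stem loop of histone mRNAs, was at 91.7, 88.5 and 90.0 TPM in MCF10A, 93.6, 93.4 and 87.5 TPM in MCF10AT1 and 74.8, 76.5 and 72.2 TPM in MCF10Ca1a. ASF1B separated all 3 lines, whereas for SLBP MCF10A and MCF10AT1 overlapped in TPM and MCF10Ca1a lay below. ASF1B fell by the most, -2.08 (SE 0.0621, adjusted p = 1.25e-12) in MCF10Ca1a against MCF10A, and SLBP by the least, -0.41 (SE 0.0510, adjusted p = 4.94e-06). SLBP was called higher in MCF10AT1 at 0.15 (SE 0.0499, adjusted p = 0.0156), and the call was lost without MCF10A replicate 2 (0.14, adjusted p = 0.0696), without MCF10AT1 replicate 2 (0.14, adjusted p = 0.0601) and on log2(TPM + 1) (0.02, adjusted p = 0.719). CHAF1A, the large subunit of chromatin assembly factor 1, was at 23.7, 17.8 and 16.3 TPM in MCF10A, 12.5, 11.9 and 13 TPM in MCF10AT1 and 6.94, 9.59 and 7.92 TPM in MCF10Ca1a. CHAF1B, its middle subunit, was at 15.8, 14 and 12.5 TPM in MCF10A, 11.4, 10.9 and 9.75 TPM in MCF10AT1 and 5.22, 5.71 and 4.54 TPM in MCF10Ca1a. Both separated the lines and changed by -1.25 (SE 0.0787, adjusted p = 2.84e-09) and -1.69 (SE 0.0630, adjusted p = 1.1e-11) in MCF10Ca1a against MCF10A.

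Among the E2F factors and fork regulators, 5 of 5 were called lower in MCF10Ca1a against MCF10A (background 41.9%) and MCF10AT1 (40.3%), and in MCF10AT1 against MCF10A 4 fell (31.8%) and E2F1 rose (29.8%). E2F1, an activator of S-phase transcription, was at 7.99, 6.67 and 6.07 TPM in MCF10A, 8.65, 8.73 and 8.67 TPM in MCF10AT1 and 6.66, 6.88 and 6.74 TPM in MCF10Ca1a. MCF10AT1 lay above both other lines, which overlapped in TPM. E2F1 rose in MCF10AT1 against MCF10A at 0.49 (SE 0.0585, adjusted p = 6.81e-06), the largest rise of any member in that comparison, and changed by -0.16 (SE 0.0629, adjusted p = 0.0326) in MCF10Ca1a against MCF10A. The latter call was lost without MCF10A replicate 1 (-0.11, adjusted p = 0.0712), without MCF10Ca1a replicate 1 (-0.15, adjusted p = 0.091), 2 (-0.16, adjusted p = 0.0667) or 3 (-0.17, adjusted p = 0.0543), with DESeq2 (-0.12, adjusted p = 0.177) and on log2(TPM + 1) (-0.02, adjusted p = 0.848). E2F2, a second activator, was at 2.88, 2.35 and 2.14 TPM in MCF10A, 1.64, 1.34 and 1.31 TPM in MCF10AT1 and 0.378, 0.437 and 0.529 TPM in MCF10Ca1a. E2F8, a repressor of S-phase genes, was at 4.21, 3.83 and 3.41 TPM in MCF10A, 2.26, 2.42 and 2.32 TPM in MCF10AT1 and 1.17, 0.978 and 1.08 TPM in MCF10Ca1a. Both separated the lines and fell, with -2.66 (SE 0.113, adjusted p = 4.35e-11) for E2F2 and -1.85 (SE 0.0903, adjusted p = 1.83e-10) for E2F8 in MCF10Ca1a against MCF10A. They were low in every line, so on log2(TPM + 1) the changes came to -1.25 and -1.21.

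DTL, the ubiquitin ligase adaptor that directs CDT1 to destruction at forks, was at 59, 49.1 and 43.3 TPM in MCF10A, 21.5, 20.3 and 18.9 TPM in MCF10AT1 and 12.4, 13.1 and 13.9 TPM in MCF10Ca1a. No lines overlapped, and the step from MCF10A to MCF10AT1, -1.15 (SE 0.0641, adjusted p = 3.04e-09), was the largest fall of any member in that comparison. The step from MCF10AT1 to MCF10Ca1a was -0.95. CLSPN, the mediator of the fork checkpoint, was at 9.40, 7.55 and 6.88 TPM in MCF10A, 5.82, 5.52 and 5.82 TPM in MCF10AT1 and 5.07, 5.28 and 5.92 TPM in MCF10Ca1a. MCF10AT1 and MCF10Ca1a overlapped for CLSPN in TPM and lay below MCF10A. Its change was -0.79 (SE 0.0691, adjusted p = 1.01e-07) in MCF10Ca1a against MCF10A, and its call against MCF10AT1, -0.50 (SE 0.0694, adjusted p = 1.37e-05), was lost on log2(TPM + 1), at -0.07, adjusted p = 0.595.

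**Figure D4:**
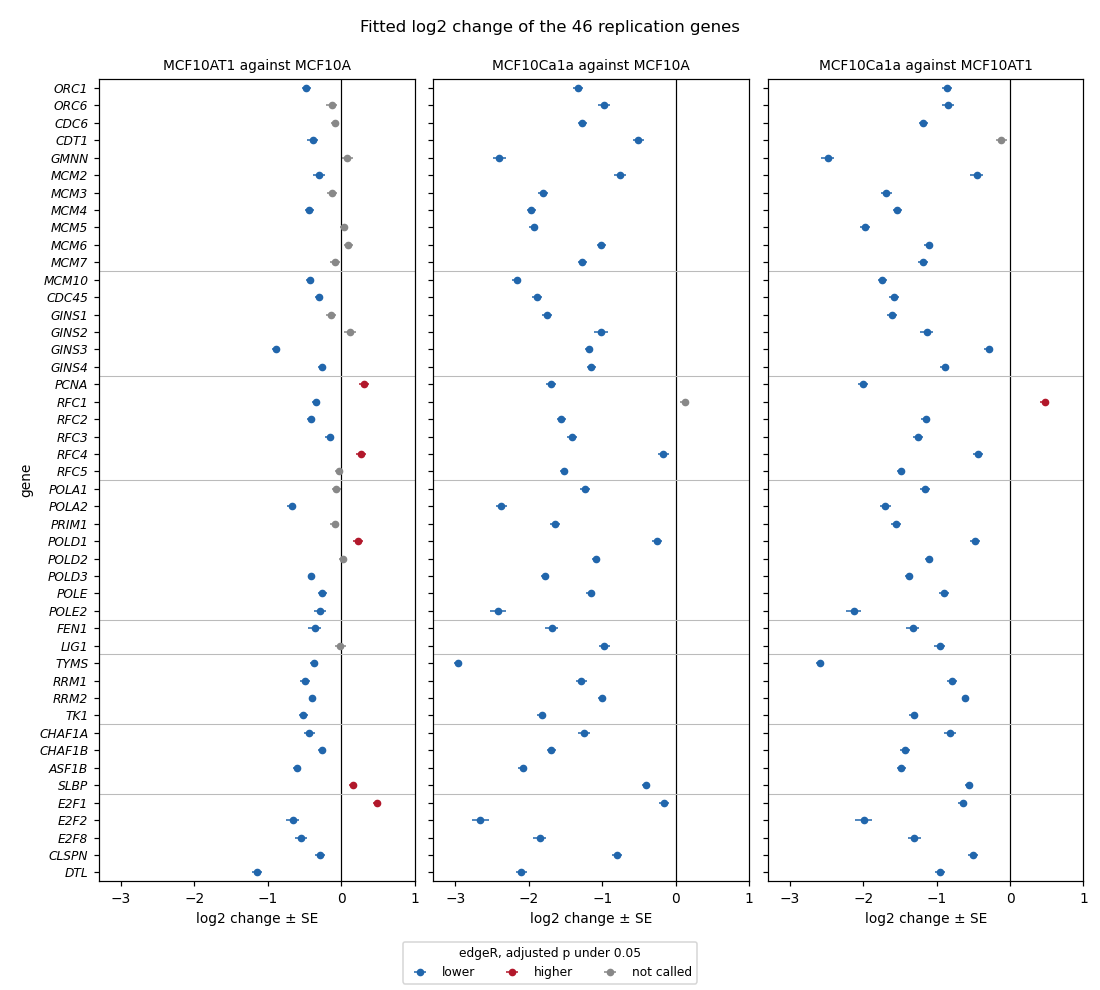
Fitted log2 change ± SE of the 46 replication genes (rows, in the order of roles) in 3 comparisons (panels), coloured by the edgeR call at an adjusted p under 0.05. TYMS lies furthest left in both MCF10Ca1a panels, at -2.97 and -2.60, RFC1 lies right of 0 in both, at 0.12 and 0.47, and E2F1 is furthest right in the MCF10AT1 panel, at 0.49.

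Ratios between partner genes within a library do not depend on library scaling. For 10 pairs in 3 comparisons an exact two-sided permutation test of 3 against 3 libraries cannot go below p = 0.1, which 25 of the 30 ratios reached and which adjusts to 0.12, so no ratio passed 0.05 and the values are descriptions. The ratio of CDT1 to its inhibitor GMNN was 0.20, 0.138 and 0.111 in the MCF10A libraries, 0.112, 0.106 and 0.105 in those of MCF10AT1 and 0.555, 0.514 and 0.520 in those of MCF10Ca1a. The MCF10Ca1a ratios lay above all others, with a difference in log2 ratio of 1.87 from MCF10A and 2.30 from MCF10AT1. Between MCF10AT1 and MCF10A the ratios overlapped, and the difference of -0.43 became -0.20 without MCF10A replicate 1. The ratio of the repressor E2F8 to the activator E2F1 was 0.527, 0.575 and 0.562 in the MCF10A libraries, 0.261, 0.278 and 0.268 in those of MCF10AT1 and 0.176, 0.142 and 0.160 in those of MCF10Ca1a. It separated all 3 lines, with differences of -1.04 and -1.80 from MCF10A in MCF10AT1 and MCF10Ca1a.

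For polymerase alpha the POLA2 to POLA1 ratio was 2.44, 2.66 and 2.59 in the MCF10A libraries, 1.76, 1.504 and 1.59 in those of MCF10AT1 and 1.15, 1.01 and 1.17 in those of MCF10Ca1a. It separated the lines, and MCF10Ca1a differed from MCF10A by -1.21. For polymerase delta POLD3 to POLD1 was 1.06, 1.24 and 1.24 in the MCF10A libraries, 0.794, 0.843 and 0.745 in those of MCF10AT1 and 0.388, 0.393 and 0.403 in those of MCF10Ca1a. That ratio also separated the lines, with differences of -0.57 and -1.58 from MCF10A, beside -0.76 for POLD2 to POLD1 in MCF10Ca1a. For polymerase epsilon POLE2 to POLE was 1.51, 2.02 and 1.94 in the MCF10A libraries, 1.91, 2.13 and 1.74 in those of MCF10AT1 and 0.583, 1.18 and 0.867 in those of MCF10Ca1a. MCF10A and MCF10AT1 overlapped, and MCF10Ca1a lay below both, with differences of -1.10 and -1.19. POLA2, POLD2, POLD3 and POLE2 thus stood lower relative to the catalytic subunit in MCF10Ca1a than in MCF10A.

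In MCF10Ca1a against MCF10A the other pairs moved less or in the opposite direction. RRM2 to RRM1 was 1.83, 1.95 and 2.09 in the MCF10A libraries, 2.20, 2.25 and 2.17 in those of MCF10AT1 and 2.60, 2.75 and 2.60 in those of MCF10Ca1a. It was highest in MCF10Ca1a and separated the lines, by 0.44 from MCF10A. CDC6 to ORC1 was 3.33, 3.47 and 3.52 in the MCF10A libraries, 4.75, 4.90 and 4.67 in those of MCF10AT1 and 3.57, 3.80 and 3.57 in those of MCF10Ca1a. MCF10AT1 stood above both other lines, by 0.47 from MCF10A. RFC1 to RFC4 was 0.588, 0.548 and 0.442 in the MCF10A libraries, 0.329, 0.366 and 0.297 in those of MCF10AT1 and 0.559, 0.558 and 0.687 in those of MCF10Ca1a, lowest in MCF10AT1, with MCF10A and MCF10Ca1a overlapping. Its log2 ratio differed by -0.67 in MCF10AT1 against MCF10A and by 0.86 in MCF10Ca1a against MCF10AT1. CHAF1B to CHAF1A was 0.668, 0.784 and 0.769 in the MCF10A libraries, 0.913, 0.917 and 0.753 in those of MCF10AT1 and 0.752, 0.595 and 0.573 in those of MCF10Ca1a, and MCF10A overlapped both other lines.

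**Figure D5:**
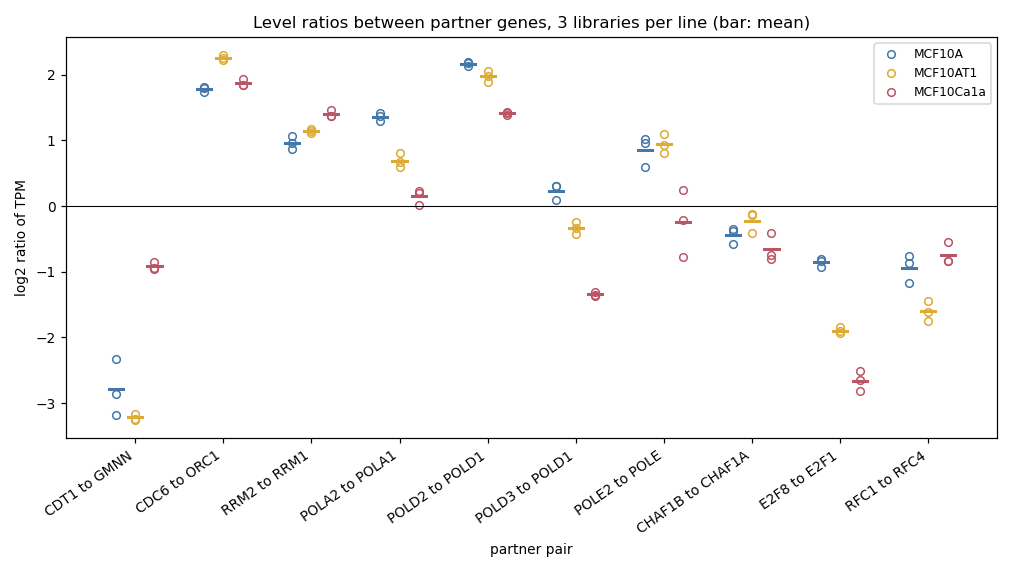
Log2 ratio of TPM between partner genes for 10 pairs (horizontal axis), 3 libraries per line as circles and their mean as a bar. CDT1 to GMNN is higher in the 3 MCF10Ca1a libraries than in any other, while POLA2 to POLA1, POLD3 to POLD1 and E2F8 to E2F1 step down from MCF10A to MCF10AT1 to MCF10Ca1a.

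Shares of transcripts within a gene were read from the TPM of transcripts, as estimated by the authors, without a test. The share of the most abundant transcript differed by at least 20 percentage points without overlap in 4 members. How many of all genes differed by as much was not counted, so whether 4 members exceed the background was not tested. POLE2-201, a transcript of 19 exons in GENCODE 29, made up 63.7%, 57.4% and 47.3% of POLE2 in the MCF10A libraries and 40.4%, 37.6% and 48.1% in the MCF10AT1 libraries, and it was listed at 0 in all 3 MCF10Ca1a libraries. POLE2-206, of 17 exons, held 34.7%, 36.2% and 34.7% in MCF10Ca1a and was listed at 0 in 2 of 3 libraries of MCF10A and 1 of 3 of MCF10AT1. POLE2-211, of 7 exons, held 27.2%, 31.5% and 24.5% in MCF10Ca1a. All POLE2 transcripts together had 128, 152 and 117 estimated counts in the MCF10Ca1a libraries, against 1171, 1395 and 1470 in those of MCF10A. The POLE2 shares in MCF10Ca1a thus rest on few reads. MCM3-205, of 17 exons, went from 84.7%, 87.2% and 85% in MCF10A to 56.2%, 57.9% and 58.3% in MCF10Ca1a, while MCM3-203, of 9 exons, and MCM3-207 held a larger share there, at means of 22.2% and 19.7% against 5.03% and 6.96%. E2F8-201 had 64.3%, 67% and 78.5% in MCF10A and the whole of E2F8 in MCF10Ca1a, at 1.08 TPM. GINS1-201 had 76.6%, 73% and 74.5% in MCF10A and 53.1%, 54.8% and 49.7% in MCF10AT1. The uncertainty of dividing reads between transcripts was not used here.

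Most replication genes outside the 46 were also lower in MCF10Ca1a. Of 34 other replication genes 30 were lower and 3 higher in MCF10Ca1a against MCF10A, with a median log2 change of -0.87 (background 41.9% lower and 39% higher), and 28 were lower and 3 higher against MCF10AT1 (median -0.81, background 40.3% and 38%). In MCF10AT1 against MCF10A 17 were lower (31.8%) and 8 higher (29.8%), so 25 of 34 were called where 61.6% of all genes tested were. UHRF1, which reads hemimethylated DNA behind the fork, had the largest fall against MCF10A, from 46.7, 35.5 and 31.6 TPM in MCF10A to 5.03, 5.34 and 5.39 TPM in MCF10Ca1a, at -2.99 (SE 0.0905, adjusted p = 1.42e-12). POLD4, the smallest subunit of polymerase delta, had the largest rise against MCF10A, from 23.7, 20.5 and 19.7 TPM to 45.5, 45.7 and 42.5 TPM, at 1.05 (SE 0.0566, adjusted p = 5.33e-10), beside the falls of POLD2 and POLD3. Among 10 other genes of the E2F and RB family 7 were lower (background 41.9%) and 2 higher (39%) in MCF10Ca1a against MCF10A, with a median of -0.50. The number called in either direction was near the 80.9% of all genes tested that were called. Changes ran from -2.01 (SE 0.0735, adjusted p = 9.55e-12) for the pocket protein RBL1 to 0.82 (SE 0.0532, adjusted p = 4.1e-09) for its relative RBL2. Of 9 S-phase checkpoint genes 6 were lower (41.9%) and 2 higher (39%) in the same comparison, with a median of -0.27. The number called in either direction was again near 80.9%. Their changes ran from -2.17 (SE 0.0599, adjusted p = 5.8e-13) for the kinase CHEK1 to 0.15 (SE 0.0541, adjusted p = 0.0185) for RAD17.

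Some members share exon bases with other genes in GENCODE 29, and their values are less certain to that extent. The kit was stranded per the labels, but whether quantification used the strand is not given in the sources used here. TYMS shares 967 exon bases with ENOSF1 on the opposite strand, which had 1723 to 2366 counts in MCF10A, 1534 to 1674 in MCF10AT1 and 232 to 295 in MCF10Ca1a. ENOSF1 was thus lowest in MCF10Ca1a too, and how far reads of the pair were exchanged was not tested. MCM7 shares 392 bases with AP4M1 on the opposite strand, and FEN1 shares 166 with TMEM258. FEN1 also shares 49 bases on the same strand with FADS2, which had 6087 to 7883 counts in MCF10A and 215 to 585 in the other lines. On the same strand POLA2 shares 2012 bases with AP000944.2, which had 395 to 446 counts in MCF10Ca1a and 171 to 290 in the other lines, and RRM2 shares 1077 with AC007240.1. The 46 genes lie on 20 chromosomes, with at most 5 on 1 chromosome (chromosome 11).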

How the data were processed

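Polyadenylated RNA of 9 libraries, 3 per line, was sequenced from a stranded, poly-A-enriched kit, per the labels' protocols. The authors deposited estimated counts and TPM per gene and per transcript, with 2 further count tables scaled to TPM, 1 of them by transcript length too. Salmon and hg38 are named by the submitters' processing notes, and the Salmon version, annotation and strand setting are not given in the sources used here.

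The members, role groups, partner pairs and context lists were chosen with earlier results of these data known. Estimated counts were rounded and tested with edgeR 4.0.16 in R 4.3.3 (quasi-likelihood, TMM, filter on low counts by line with a minimum count of 10 and minimum total of 15, all 9 libraries in 1 fit by line), with Benjamini-Hochberg adjustment over the 17910 genes kept and a threshold of 0.05. Changes are log2 differences between lines from this fit, with its standard error (SE). Levels per library are the deposited TPM, and ratios between partner genes come from TPM, with exact two-sided permutation tests. TPM and counts differ in how they treat the length of the transcripts present, so both are given where they disagree. Alternatives were DESeq2 1.42.0 and its size factors, no filter, both scaled count tables, limma 3.58.1 on log2(TPM + 1) or log2(TPM + 0.1), a replicate block, 2 lines only, thinned libraries and each library left out in turn. The fits were tested on simulated data. Values were given in every library for the members with the largest and smallest change of each role group and comparison, all MCM subunits and all partner genes, with further members added. Exon overlaps and transcript names came from GENCODE 29 on GRCh38, and promoter windows from RefSeq. The transcript count tables were not used.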

Additional observations from a re-analysis of the deposited data

How the results depend on the processing

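Across the settings tried, the number of the 46 replication genes called was 29 to 36 in MCF10AT1 against MCF10A, 41 to 45 in MCF10Ca1a against MCF10A and 39 to 46 in MCF10Ca1a against MCF10AT1. The number of all genes called was 8892 to 11649, 13461 to 16050 and 13137 to 15312 in turn, so the background was large and also moved with the setting. Of 2760 values of single members under an alternative, 2626 kept direction and side of the threshold, 75 lost the call, 31 gained it and 28 turned sign. Taken on log2(TPM + 1) relative to all genes, the members' median moved to -1.22 and -0.92 in MCF10Ca1a against MCF10A and MCF10AT1. In MCF10AT1 against MCF10A, log2(TPM + 1), log2(TPM + 0.1) and log2(TPM + 1) with no filter turned GMNN (-0.029, -0.030 and -0.029), MCM5 (-0.028, -0.029 and -0.028), MCM6 (-0.044, -0.045 and -0.044) and POLD2 (-0.11, -0.12 and -0.11). LIG1 turned with no filter (0.0017), length-scaled counts (0.0050), scaled counts (0.0044), the 2 lines only (0.017) and thinned libraries (0.0069). With 1 library left out, GMNN ran from -0.015 (without MCF10A replicate 1) to 0.18, MCM5 from -0.016 (without MCF10A replicate 3) to 0.11, POLA1 from -0.13 to 0.0031 (without MCF10A replicate 1), POLD2 from -9.1e-05 (without MCF10AT1 replicate 1) to 0.058 and LIG1 from -0.084 to 0.096 (without MCF10A replicate 1). None of these 6 members was called in the fit to all libraries. On the same 3 TPM scales RFC4 turned in MCF10Ca1a against MCF10A (0.084, 0.085 and 0.084) and CDT1 in MCF10Ca1a against MCF10AT1 (0.090, 0.095 and 0.090). The POLE2 to POLE ratio in MCF10AT1 against MCF10A turned with CPM in place of TPM (-0.023) and ran from -0.044 (without MCF10A replicate 1) to 0.17 with 1 library left out. The cause of these turns was not tested. With a replicate block 32, 45 and 45 members were called, where the fit without it called 61.6%, 80.9% and 78.4% of all genes tested. Deviations of same-numbered libraries correlated at -0.136 to 0.159, so the numbers were not taken to pair the samples. The block made RFC1 a call in MCF10Ca1a against MCF10A (adjusted p = 0.0447) and ended that of RFC4 (adjusted p = 0.0507). With all libraries thinned to the smallest total, 33, 45 and 45 members were called, to be read beside the same shares of all genes.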

Other observations

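Genes of mitosis, the stage that follows replication, were lower in MCF10Ca1a too. All 30 of a list of spindle, kinetochore and mitotic entry genes were called lower and at least 2-fold lower in MCF10Ca1a against MCF10A (21.7% of all genes tested) and against MCF10AT1 (19.5%), with median log2 changes of -2.44 and -1.93 by edgeR's quasi-likelihood test. In MCF10AT1 against MCF10A 27 of the 30 were lower (31.8% of all genes tested) and 3 were not called. The median there was -0.45, against -0.0038 over all genes tested. CENPF, a kinetochore protein, was at 65.3, 59.7 and 55.6 TPM in MCF10A, 19.2, 18.8 and 20.8 TPM in MCF10AT1 and 4.38, 4.06 and 4.79 TPM in MCF10Ca1a. The lines did not overlap, and its change of -3.77 (SE 0.0788, adjusted p = 4.68e-14) in MCF10Ca1a against MCF10A was the largest fall of the list. The summed level of the list was 4174 to 4490 TPM in MCF10A, 2898 to 3102 TPM in MCF10AT1 and 915 to 926 TPM in MCF10Ca1a, beside 2639 to 2983, 2246 to 2391 and 1197 to 1231 TPM for the 46 replication genes.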
